A study of Caenorhabditis elegans with 2 samples.

Results

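The binding of LET-526 at the homeobox genes of whole young adult Caenorhabditis elegans was described from lists of chromatin immunoprecipitation sequencing (ChIP-seq) peaks. Homeobox genes were taken as the protein-coding genes whose symbol is ceh- followed by a digit, which gave 63 genes, plus 23 listed genes known by other names, such as the Hox genes lin-39 and mab-5. All 23 were found in the annotation, so there were 86 homeobox genes among 19973 protein-coding genes. The worms were of strain RW12306, which carries the CRISPR insertion st12306 (let-526::TY1::EGFP::3xFLAG), so that LET-526 is tagged at its own locus. They were collected at 60 hours as young adults after synchronisation, by bleaching, as starved L1 larvae. An anti-GFP antibody was used to pull down the sonicated chromatin. The 2 samples are biological replicates of 1 group and of this 1 strain, with no control library analysed here and therefore no comparison of conditions. In whole worms, a protein bound in few cells and one bound weakly in many cannot be told apart.

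LET-526 corresponds to mammalian ARID1 and belongs to a SWI/SNF chromatin remodelling complex, which uses ATP to shift or remove nucleosomes. Homeobox genes encode transcription factors that bind DNA through a homeodomain. In worms, Hox genes set position along the body axis, LIM, POU and paired-like genes fix the identities of neurons and other cells, and TALE proteins bind DNA together with Hox proteins. Many of them are read in few cells, and regulatory DNA of such genes often lies in introns or far upstream as well as beside the start.

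The deposited optimal list held 1200 peaks from both replicates together, the stricter conservative list held 1077, and the lists of replicates 1 and 2 held 585 and 421. Each peak has a signal, which is the peak caller's own value, and a score of at most 1000. The score follows the irreproducible discovery rate (IDR), the estimated rate of peaks that do not recur between the peak sets compared. Lists of a single replicate carry an IDR too, so the sets compared need not be the 2 biological replicates. A low IDR is therefore not in itself agreement between replicates 1 and 2. The lowest score in the optimal list was 830, which is an IDR of 0.0100. Longer ranked lists hold weaker peaks, most of which are not reproducible, and a ranked peak below the threshold is no call. Where a gene had several ranked peaks at a site, the best is the one of highest score, and the signal given is that peak's own. Signals from lists of different depth cannot be compared in size, and the depth of the libraries is unknown because the files hold no reads. A promoter peak had its summit from 1000 bp upstream to 200 bp downstream of the annotated start, a body peak lay elsewhere in the gene, and a distal peak lay between the promoter window and 5000 bp upstream.

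LET-526 peaks were found at 6 of the 86 homeobox genes, and 80 had none. The promoter windows of ceh-38, ceh-39 and ceh-99 held 1 peak each, and the distal regions of ceh-5, ceh-21, ceh-39 and ceh-90 held 1 each. No homeobox gene had a peak in an intron, coding exon or untranslated exon. The ceh-39 promoter peak is also the distal peak of ceh-21, so there were 7 gene and peak pairs from 6 peaks. Both ceh-38 and ceh-39 encode ONECUT proteins, which carry a cut domain beside the homeodomain, and ceh-39 is one of the X-linked genes by which worm embryos count X chromosomes. ceh-21 is also a ONECUT gene and ceh-5 is an Antennapedia-class gene. ceh-90 and ceh-99 were given no class for sure and are grouped here as divergent or unclassed.

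The sequences at some of these sites are given as 121 bases centred on the summit. They are read 5′ to 3′ on the strand of the named gene from the WBcel235 (ce11) genome. Those upstream of ceh-5, the strongest of the 6 peaks, and of ceh-90 are not printed but are counted in the motif and GC shares. Capitals mark every match on either strand to the motifs searched. A match to TGACAG can read CTGTCA on the strand shown, a match to GAGAGA can read TCTCTC, and a match to CCAAT can read ATTGG. The other motifs searched, which read the same on both strands, were TAATTA as well as ATCGAT. The first 3 are the promoter peaks, the fourth is the distal peak upstream of ceh-39, and the last is an intronic peak of the Hox gene nob-1 that missed the threshold and is shown because it is the strongest site of the Hox genes.

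ceh-38 promoter, chrII:6951510-6951630, plus strand: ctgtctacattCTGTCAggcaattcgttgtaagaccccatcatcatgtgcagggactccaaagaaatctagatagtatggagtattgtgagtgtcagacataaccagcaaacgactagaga

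ceh-99 promoter, chrII:12518942-12519062, plus strand: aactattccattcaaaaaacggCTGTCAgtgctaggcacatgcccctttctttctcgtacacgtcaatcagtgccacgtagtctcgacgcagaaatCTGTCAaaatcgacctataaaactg

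ceh-39 promoter, chrX:1856386-1856506, minus strand: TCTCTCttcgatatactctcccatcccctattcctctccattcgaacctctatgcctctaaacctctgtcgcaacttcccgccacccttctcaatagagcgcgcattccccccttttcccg

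ceh-39 distal, chrX:1858777-1858897, minus strand: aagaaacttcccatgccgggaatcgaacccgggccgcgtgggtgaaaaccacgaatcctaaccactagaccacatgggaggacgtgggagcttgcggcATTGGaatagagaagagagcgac

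nob-1 intron, chrIII:12081383-12081503, minus strand: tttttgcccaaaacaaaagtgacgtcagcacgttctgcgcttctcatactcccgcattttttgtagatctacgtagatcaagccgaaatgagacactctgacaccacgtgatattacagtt

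The ceh-38 and ceh-99 promoter sequences both hold TGACAG, with 1 match at ceh-38 and 2 at ceh-99. Of the 6 homeobox peaks, 2 held TGACAG within 201 bases round the summit, against 7.58% of all 1200 optimal peaks. GAGAGA was found in 2 of 6 homeobox peaks and in 34.3% of all peaks, and CCAAT in 3 of 6 and in 28.9%. TAATTA, a core that many homeodomains bind, was found in 0 of 6 homeobox peaks and in 4.08% of all peaks, and ATCGAT, a core bound by ONECUT proteins, in 0 of 6 and in 7.58%. No match says only that these letters are not in these windows. The GC content of the 6 windows was 46.3% at ceh-38, 45.3% at ceh-99, 53.7% at the ceh-39 promoter, 50.7% at the ceh-39 distal site, 51.2% upstream of ceh-5 and 40.3% upstream of ceh-90. The median over all optimal peaks was 45.3%, with quartiles of 40.8% and 50.2%, so 3 of the 6 windows lay above the upper quartile and 1 below the lower one.

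**Figure D1:**
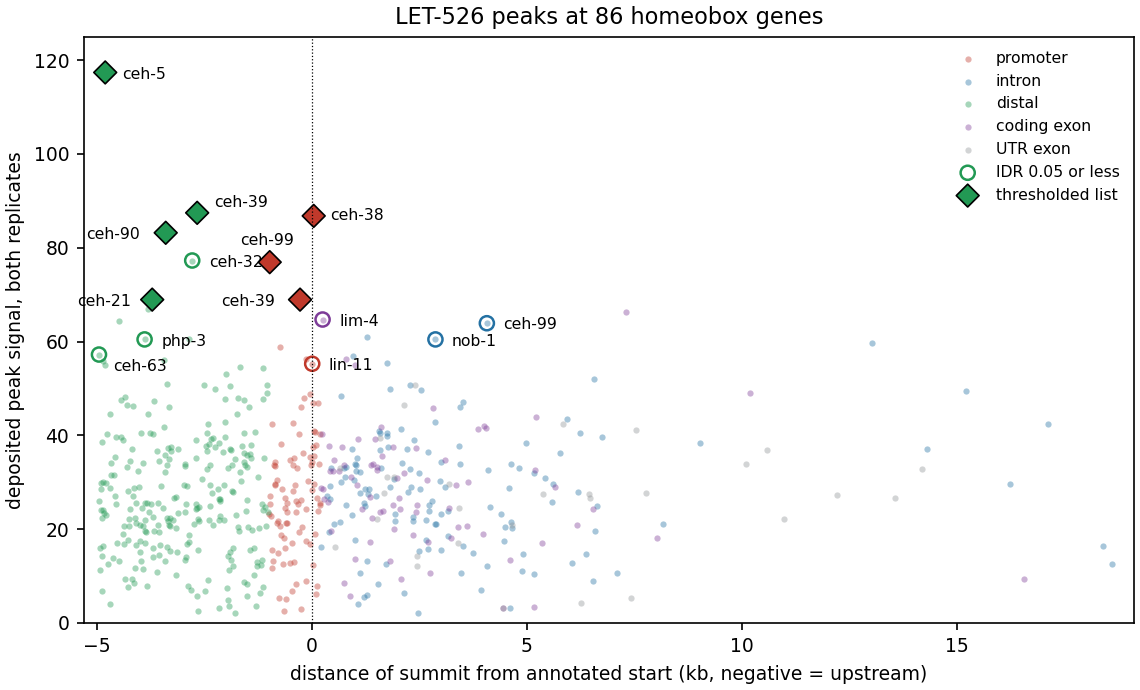
Every ranked peak of the 86 homeobox genes, by the distance of its summit from the gene's annotated start in kb (x axis) and its deposited signal from both replicates (y axis), coloured by site. Filled diamonds are the 7 gene and peak pairs of the thresholded list, with signals of 68.9 to 117.4, and open circles are further pairs at an IDR of 0.05 or less. Every diamond lies in a promoter window or upstream of it.

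The question put to these genes was whether promoter, intronic or distal sites carried the LET-526 peaks. Promoter peaks were found at 3 of 86 homeobox genes, or 3.49% (exact Clopper-Pearson 95% interval 0.725 to 9.86%), and at 664 of all 19973 genes, or 3.32%. Distal peaks were found at 4 of 86, or 4.65% (interval 1.28 to 11.5%), and at 965 of all genes, or 4.83%. Both shares were close to those of all genes. Intronic peaks were found at 0 of 86, and at 264 of all genes, or 1.32%. Limits for a count of 0 are given by the rule of 3, as 3 divided by the number of genes or Mb. By that rule the 0 of 86 allows a share of up to 3.49%, and the exact interval reaches somewhat higher. Body peaks of any kind were likewise found at 0 of 86, and at 346 of all genes, or 1.73%. Counting every site, 6 of 86 homeobox genes had a peak, or 6.98% (interval 2.60 to 14.6%), against 1824 of all genes, or 9.13%. Each of these intervals holds the share of all genes. The intervals and limits cover counting error over genes only. In the thresholded list of replicate 1 alone, 0 homeobox genes had a promoter peak, against 1.83% of all genes, and in that of replicate 2 alone 0 had one, against 1.35%. In each of these lists 1 homeobox gene, ceh-5, had a peak at any site, against 4.96% of all genes in replicate 1 and 3.66% in replicate 2.

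Homeobox genes are longer than most, with a median length of 3322.5 bp and a median intron content of 1632.5 bp, against 2027 and 722 bp over all genes. Their introns therefore gave room for peaks, 0.229 Mb in all. Optimal intronic peaks came to 0 per Mb of homeobox intron, with a limit of 13.1 per Mb, and to 9.33 per Mb of intron over all genes, so a difference was not detectable with this number of peaks. The density in promoter windows was 29.0 per Mb at homeobox genes and 28.8 per Mb at all genes. In distal regions it was 11.6 per Mb at homeobox genes and 13.7 per Mb at all genes. The homeobox densities rest on 3 promoter and 4 distal pairs, and in either replicate alone, and among peaks above the median signal, the counts were 0 promoter genes and 1 distal gene.

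The 6 homeobox peaks were of moderate strength. Their signals ran from 68.9 to 117.4 with a median of 84.99, against a median of 92.3 over all 1200 optimal peaks and 97.4 over optimal promoter peaks. Of the 6, 4 were also in the conservative list. Only 1, upstream of ceh-5, was in the thresholded list of replicate 1, and the same 1 was in that of replicate 2. The other 5 passed only in the lists made from both replicates. The annotated start nearest to the summit was that of a homeobox gene at 2 of the 6 peaks, the promoter peaks of ceh-38 and ceh-39.

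The ceh-38 peak (WBGene00000459, gene at chrII:6951526-6955409, plus strand) lay at chrII:6951435-6951704, with its summit 44 bp downstream of the annotated start. Its signal was 86.8 in the optimal list, where it ranked 713 of 1200, with the top score of 1000 and an IDR of 0.00259. The ranked list of replicate 1 gave it a signal of 47.1 and that of replicate 2 gave 44.5, so it was found in both lists, with scores of 541 and 284. It was in the conservative list too. The same summit lies 270 bp upstream of the start of malt-1, the worm MALT1 gene, which runs head to head with ceh-38, so the peak cannot be given to either gene alone.

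The ceh-39 promoter peak (WBGene00000460, gene at chrX:1853874-1856172, minus strand) lay at chrX:1856311-1856580, with its summit 274 bp upstream of the start. Its signal was 68.9, its score 883 and its IDR 0.00747, and it ranked 1108 of 1200, the weakest of the 6. Replicate 1 gave it a ranked signal of 34.5 and replicate 2 gave 35.7. It missed the conservative list, where its ranked score was 761. No other protein-coding gene has its promoter window there, although the annotation holds a non-coding RNA, T26C11.10, within 200 bp.

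The ceh-99 peak (WBGene00044032, gene at chrII:12519981-12524478, plus strand) lay at chrII:12518867-12519136, with its summit 979 bp upstream, near the edge of the promoter window. Its signal was 76.9, its score 984 and its IDR 0.00425, and it was in the conservative list. Replicate 1 gave a ranked signal of 52.8 and replicate 2 gave 30.5. The start of srh-70, which encodes a chemoreceptor of the serpentine class H, lies nearer, 143 bp from the summit, and a small nucleolar RNA gene lies within 200 bp. With the promoter window reduced to 500 bp upstream and 100 bp downstream, this peak was no longer a promoter peak of ceh-99 and 2 homeobox genes were left with one.

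The distal peak upstream of ceh-39 lay at chrX:1858702-1858971, 2665 bp from the start, with a signal of 87.4, a score of 995 and an IDR of 0.0040. Replicate 1 had no overlapping peak in its ranked list, and replicate 2 had one of signal 40.5 with a score of only 31. The summit lies on a tRNA gene, and the nearest protein-coding start is that of T26C11.8, at -1885 bp from it. Among the 6 homeobox peaks it is the only one without a counterpart in a replicate.

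The ceh-90 distal peak (WBGene00010995, gene at chrX:14155115-14157013, minus strand) lay at chrX:14160274-14160543, 3396 bp upstream, inside an intron of lgc-25, which encodes a ligand-gated ion channel. Its signal was 83.2, its score 926 and its IDR 0.00586. Replicate 1 gave a ranked signal of 24.7 with a score of 47, and replicate 2 gave 47.1 with a score of 729. The 2 replicates thus differed in how high they ranked it, and the peak missed the conservative list with a score of 417.

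The ceh-5 distal peak (WBGene00000430, gene at chrI:9727169-9728034, plus strand) was the strongest of the homeobox peaks. It lay at chrI:9722232-9722501, 4802 bp upstream of ceh-5, with a signal of 117.4, a score of 1000 and an IDR of 0.000411, and it ranked 295 of 1200. Replicate 1 gave a ranked signal of 61.0 and replicate 2 gave 47.7. This peak lies in the promoter window of eat-16, which encodes a regulator of G protein signalling, 349 bp from its start, and inside an intron of ocrl-1, a phosphoinositide phosphatase gene. It is near the far limit of the distal region of ceh-5 and closest to another gene's start.

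**Figure D2:**
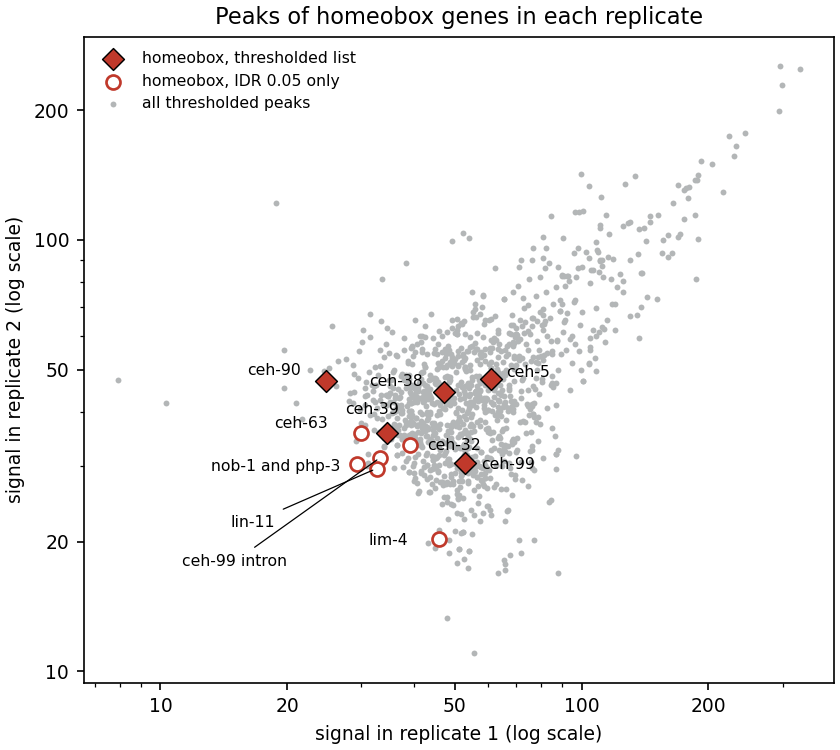
Ranked signal of each homeobox peak in replicate 1 (x axis) and in replicate 2 (y axis), both on log scales, with all thresholded peaks found in both replicates in grey. Diamonds are homeobox peaks of the thresholded list and open circles those at an IDR of 0.05 or less only; the distal peak of ceh-39 has no value in replicate 1 and is not drawn. The homeobox peaks have no signal above 61.0 in either replicate, where the grey points reach beyond 200.

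Relaxing the IDR to 0.05, a score of 540, added 6 peaks and 6 genes. With them, 12 of 86 homeobox genes had a site, or 14% (interval 7.42 to 23.1%), against 17% of all genes. Promoter peaks were then found at 4 of 86 homeobox genes, against 5.62% of all genes, intronic peaks at 2 of 86 against 2.44%, body peaks at 3 of 86 against 4.18%, and distal peaks at 7 of 86 against 9.38%. The shares of homeobox genes at this looser threshold were again close to those of all genes. The densities at this threshold were 38.7, 8.72 and 20.3 per Mb in promoter windows, introns and distal regions of homeobox genes, against 49.5, 19.3 and 28.3 per Mb over all genes.

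The added sites were at ceh-32, lim-4, ceh-99, ceh-63, lin-11 and the pair nob-1 and php-3. ceh-32, a sine oculis-class gene needed for head morphogenesis, had a distal peak 2780 bp upstream with a signal of 77.3 and a score of 819, just under the threshold of 830. It gave signals of 39.1 and 33.4 in replicates 1 and 2. lim-4, a LIM gene that specifies an olfactory neuron, had a peak in a coding exon 250 bp downstream of its start, with a signal of 64.7 and a score of 610. Its ranked signal was 45.9 in replicate 1 and 20.3 in replicate 2. ceh-99 had an intronic peak 4068 bp downstream of its start, with a signal of 63.9 and 33.3 and 31.3 in the replicates.

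ceh-63 had a distal peak 4947 bp upstream, with a signal of 57.2 and replicate signals of 29.99 and 35.8, which also lies in the promoter window of tag-52. lin-11, a LIM gene of vulval and neuronal development, had the only added promoter peak, 9 bp downstream of its start. Its signal was 55.3, its score 542 and its IDR 0.0495, at the edge of the relaxed threshold, and the replicates gave 32.6 and 29.5. The intronic peak of nob-1 and distal peak of php-3 are the same peak and are described with the Hox genes.

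The 6 Hox genes, all on chromosome III, had 0 peaks in the optimal list, and 2 of them, nob-1 and php-3, had a site at an IDR of 0.05. nob-1 and php-3 are neighbouring posterior Hox genes that act in the tail of the embryo. Their shared site lay at chrIII:12081308-12081577, in an intron of nob-1, 2873 bp downstream of its start and 3887 bp upstream of the php-3 start. Its signal was 60.4, its score 601 and its IDR 0.0356. The ranked list of replicate 1 gave it a signal of 29.2 with a score of 163, and that of replicate 2 gave 30.2 with a score of 252. In the promoter window of php-3 a weaker ranked peak lay 130 bp upstream, with a signal of 56.3 and a score of 345, and only replicate 2 had a counterpart, of signal 32.8.

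Elsewhere among the Hox genes the ranked peaks were weak. lin-39, which patterns the mid-body and the vulva, had no promoter peak in the optimal ranked list, and its best intronic peak, 6551 bp from the start, had a signal of 52.0 and a score of 199. mab-5, which acts in the posterior body, had no promoter peak in any of the 4 ranked lists, and its best intronic peak had a signal of 27.1 and a score of 99. egl-5, an Abdominal-B-like gene of the tail, had a promoter signal of 25.4 with a score of 34 and an intronic signal of 35.2 with a score of 190. ceh-13, the labial ortholog of the anterior, had a promoter signal of 28.2 with a score of 34, no intronic peak and a distal peak of signal 33.6. nob-1 had a promoter signal of 30.5 with a score of 87. Another intronic peak of nob-1, 950 bp from its start, had a signal of 57.0 and a score of 260. The replicates gave it 37.7 and 21.3. The best intronic peak of php-3, 2274 bp from its start, had a signal of 50.6 and a score of 269, with a counterpart in replicate 2 only. Over the Hox genes the median best ranked signal was 29.3 in the promoter windows of 4 genes and 50.6 in the introns of 5 genes. All of these peaks were below the threshold, and the 50.6 is the php-3 value. Over all genes the medians were 33.2 and 32.8. The best was often taken from more peaks in introns than in promoter windows, as with 8 against 1 at nob-1.

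Homeobox genes lie close to one another in few places. Within 10000 bp of each other there were 8 neighbouring pairs, which include 14 of the 86 genes, and in 7 pairs no protein-coding gene lay between. The ONECUT genes ceh-39, ceh-21 and ceh-41 form the only run with a peak of the optimal list. They lie in that order of transcription on the X chromosome, with 1137 bp between ceh-39 and ceh-21 and 103 bp between ceh-21 and ceh-41. Across the cluster and 5000 bp upstream of it there were 12 ranked peaks with signals of 12.6 to 87.4 and a median of 29.6, and the 2 of them at an IDR of 0.05 or less both lay upstream of ceh-39. Downstream of the ceh-39 start, the highest was 54.4, beyond the 3′ end of ceh-39, with a score of 261.

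In the same way 15 ranked peaks lay across nob-1, php-3 and 5000 bp upstream, with signals of 3.07 to 60.4 and a median of 33.996, and 1 of them had an IDR of 0.05 or less. Of the ranked peaks, 4 of 12 in the ONECUT cluster and 5 of 15 at the Hox pair had a counterpart in both replicates. ceh-21 itself had a promoter signal of 25.5 with a score of 34, and ceh-41 had 29.7 with a score of 34. The remaining ONECUT genes lie elsewhere: ceh-49 had a promoter signal of 35.1 with a score of 77, and ceh-48, a regulator of genes shared by all neurons, had no promoter peak in any ranked list.

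**Figure D3:**
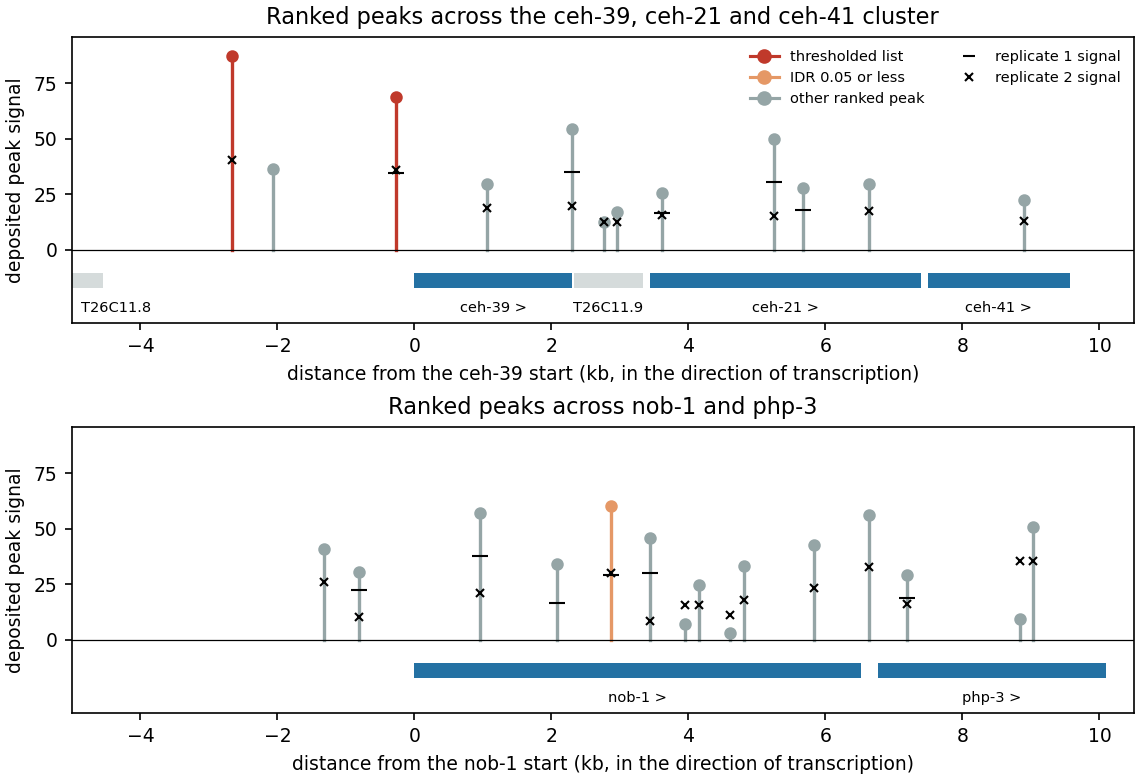
Ranked peaks (stems, height = deposited signal from both replicates) across the ONECUT cluster and the nob-1 and php-3 pair, by distance in kb from the start of ceh-39 or nob-1 in the direction of transcription, with gene spans as bars below 0. Dashes and crosses give the signals of overlapping ranked peaks in replicates 1 and 2. The 2 thresholded peaks stand upstream of ceh-39, at signals of 87.4 and 68.9, and the peak of lowest IDR at the Hox pair lies inside nob-1 at 60.4.

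The ranked lists give a graded view of all 86 homeobox genes, the 80 without an optimal peak among them. In the optimal ranked list, 58 of 86 homeobox genes (67.4%) had a promoter peak of any height, against 65.5% of all genes. By score, the best promoter peak of the homeobox genes had a median percentile of 38.4 among all genes with one, with quartiles of 20.9 and 64.5. Of the 58, 23 lay above the median of all genes and 4 (6.90%) among the highest 10% of all genes. The 4 were ceh-38, ceh-39 and ceh-99, which have an optimal promoter peak, and lin-11, which has none. The median placing of the homeobox genes depended on the list. It was 53.8 in the conservative ranked list, 49.4 in that of replicate 1 and 41.8 in that of replicate 2. The median best promoter signal was 30.1 at homeobox genes and 33.2 at all genes in the optimal ranked list.

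The best intronic peak of the homeobox genes had a median percentile of 51.2, over 46 of 86 genes, and the best distal peak had 42.8, over 76 of 86 genes. In the conservative ranked list and those of replicates 1 and 2 the intronic medians were 47.9, 45.4 and 36.6, each below the promoter median of the same list, whereas in the optimal ranked list the intronic median was above it. The distal medians in those 3 lists were 51.1, 46.5 and 49.2. Taking for each homeobox gene its ranked peak of highest score, that peak was distal in 42 of 81 genes (51.9%), in a coding exon in 15, in an intron in 10, in the promoter window in 10 (12.3%) and in an untranslated exon in 4. Over all genes with a ranked peak the shares were 52.1% distal and 19.4% promoter. The intronic share was 12.3% at homeobox genes and 11.98% at all genes. Coding exons held 18.5% and 14.5%, and untranslated exons 4.94% and 2.12%. The other 5 homeobox genes (5.81% of 86) had no ranked peak at any of these sites, against 8.20% of all genes. Where a homeobox gene had ranked peaks of both kinds, the best intronic peak had a signal above that of the best promoter peak in 20 of 36 (55.6%), against 49.2% of 6235 genes. Distal regions are longer than promoter windows. Per Mb, homeobox genes had 871 ranked peaks in promoter windows, 593 in introns and 767 in distal regions, and all genes had 857, 720 and 821.

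After lin-11 and php-3, the below-threshold promoters of highest score were those of unc-42, ceh-91, lim-7, ceh-79, ceh-51, ceh-18, ceh-30 and ceh-74. unc-42, a paired-like gene that fixes interneuron and sensory neuron identity, had a peak 171 bp upstream with a signal of 47.98 and a score of 232, with 23.5 in replicate 2 and none in replicate 1. lim-7, an Islet-type LIM gene, had a peak 18 bp downstream of its start with a signal of 47.0 and a score of 191, with 29.1 and 21.2 in replicates 1 and 2. ceh-18, a POU gene of the gonadal sheath, had a signal of 40.2 and a score of 161, with 23.4 and 17.1 in the replicates. ceh-51, a mesodermal gene, had a peak 27 bp upstream with a signal of 33.6 and a score of 174, with 16.4 and 20.3.

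Of the other 4, ceh-91 had a signal of 40.6 and a score of 219, and ceh-30, a BarH-type gene that keeps male-specific neurons alive, had 35.3 and 154, with no overlapping ranked peak in either replicate. ceh-79 had a signal of 23.3 and a score of 188, and ceh-74 had 36.1 and 146, each with a counterpart in replicate 2 only. Of the 80 genes without an optimal peak, 52 had a ranked promoter peak. Their promoter signals for the best-scoring peak ran from 11.6 to 58.8 with a median of 30.1, and 34 had a score under 100.

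A further 16 homeobox genes had no promoter peak in any of the 4 ranked lists, and 20 had one in all 4. The matching counts over all genes are not given here. The optimal ranked list had one at 67.4% of homeobox genes and 65.5% of all genes, and the conservative one at 59.3 and 64.2%. In the ranked list of replicate 1 the shares were 40.7 and 47.3%, and in that of replicate 2 they were 51.2 and 50.1%. The 16 were ceh-6, ceh-16, ceh-27, ceh-36, ceh-40, ceh-48, ceh-54, ceh-57, ceh-58, ceh-62, ceh-75, ceh-92, ceh-93, cog-1, lim-6 and mab-5. Among them ceh-16 is the engrailed gene, ceh-36 an Otx-type gene, ceh-6 a POU gene and cog-1 an Nkx6-type gene. For cog-1 and lim-6 the ranked peaks lay elsewhere: cog-1 had an intronic signal of 55.5 with a score of 285, and lim-6 a distal signal of 48.01 with a score of 241. Taking every site, 74 homeobox genes had nothing at an IDR of 0.05. In 5 of them, ceh-6, ceh-57, ceh-58, ceh-84 and vab-15, no peak was in the optimal ranked list. In the other 69, the best-scoring peaks had signals of 22.1 to 67.0 and a median of 38.03, and the highest scores were 526 upstream of lim-7 and 518 upstream of ceh-24.

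By class, peaks of the optimal list were found at 3 of 6 ONECUT genes, 1 of 22 Antennapedia-class genes outside the Hox group and 2 of 22 divergent or unclassed genes. Hox (6), LIM (7), POU (3), paired and paired-like (12), sine oculis (3), TALE (4) and zinc finger (1) genes had 0. Over all genes, 9.13% had a peak at any site. The ONECUT count rests on 2 loci, since ceh-21 and ceh-39 share a peak. At an IDR of 0.05, sites were found at 3 ONECUT genes, 2 Hox genes, 2 LIM genes, 1 sine oculis gene and 1 other Antennapedia-class gene. They were also found at 3 divergent or unclassed genes, and at 0 of the 3 POU, 12 paired, 4 TALE and 1 zinc finger genes. At this threshold 17% of all genes had a site. The classes are small and were read with the results known, so these counts are a description.

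Among the classes without a site, the paired and paired-like genes had ranked promoter signals of 22.8 to 47.98 over 10 of 12 genes. unc-4 and unc-30, which fix motor neuron identity, had promoter signals of 34.3 and 40.2, and vab-3, the Pax6 gene, had 40.8. unc-42 had the highest intronic score of these, with a signal of 61.0 and a score of 417. The TALE genes, partners of Hox proteins, had promoter signals of 33.7 at ceh-20 and 29.6 at unc-62, and unc-62 had an intronic signal of 59.7 with a score of 171. The POU gene unc-86, which directs neuronal lineages, had no promoter peak in the optimal ranked list and a distal signal of 34.1. zag-1, the only zinc finger homeobox gene, had a promoter signal of 15.6 and an intronic signal of 48.3. Over the 23 listed genes, the signals of the best-scoring peaks ran from 15.6 to 56.3 at 14 promoters (median 32.4). They ran from 8.36 to 61.0 at 21 genes with an intronic peak (median 40.5) and from 17.4 to 67.0 at 20 with a distal one (median 35.8). Over all genes these medians were 33.2, 32.8 and 38.6.

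**Figure D4:**
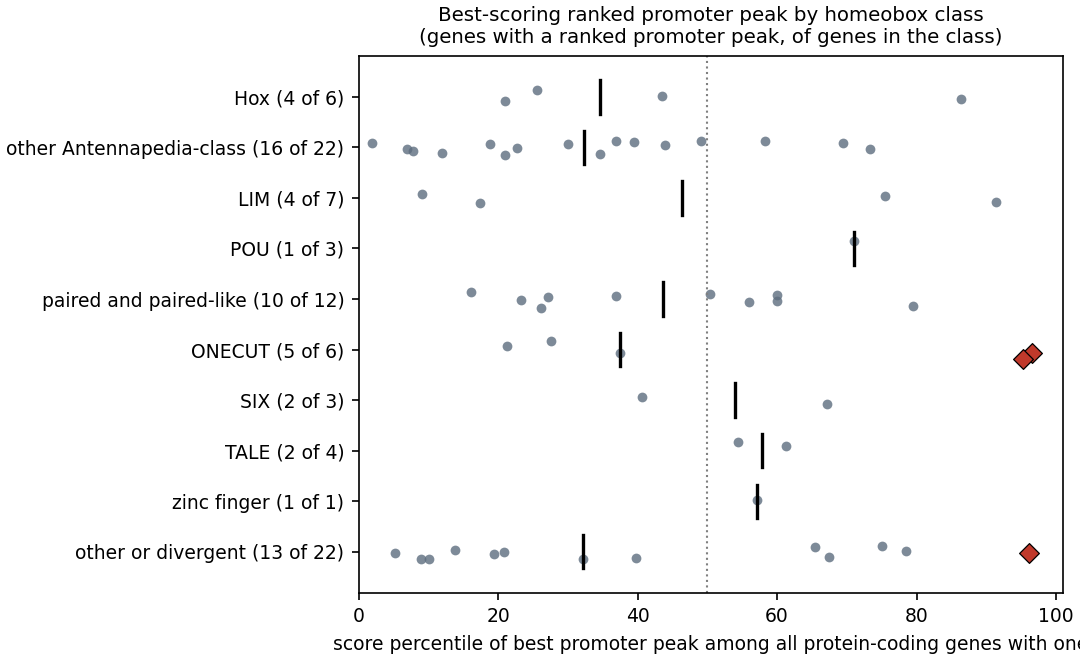
Percentile, by score, of the best ranked promoter peak of each homeobox gene among all protein-coding genes with such a peak (x axis), by homeobox class (rows). Points are genes, diamonds are genes with a promoter peak in the thresholded list, black bars are class medians and the dotted line is the median of all genes. The 3 diamonds lie above 95, ceh-38 and ceh-39 among the ONECUT genes and ceh-99 among the divergent or unclassed ones. Of the rest, lin-11 is the highest, at 91.5.

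By chromosome, the homeobox genes were most numerous on X, with 24 of 86. Genes with an optimal peak numbered 3 of 24 on X, 2 of 15 on II and 1 of 10 on I, and 0 of 16 on III, 0 of 7 on IV and 0 of 14 on V. Over all genes, the share with an optimal peak at any site was 9.89% on X, 9.05% on II, 10.9% on I, 12.3% on III, 8.38% on IV and 6.57% on V.

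Other families of DNA-binding proteins were counted in the same way, and most are too small for their shares to be compared closely. Against 3 of 86 homeobox genes (3.49%), a promoter peak was found at 5 of 269 nuclear hormone receptor genes (1.86%, interval 0.606 to 4.28%). Such a peak was also found at 1 of 25 bHLH genes, 1 of 15 forkhead genes and 0 of 20 T-box genes. By the rule of 3 the T-box count allows a share of up to 15%. The strongest of these were upstream of nhr-48 (129.4), nhr-35 (108.0) and nhr-142 (105.6), the forkhead gene daf-16, the FOXO of insulin signalling (88.1), and hlh-11 (74.7). For introns the counts were 0 of 86 homeobox genes, 5 of 269 nuclear hormone receptor genes, 1 of 25 bHLH genes, 2 of 15 forkhead genes and 0 of 20 T-box genes. Over all genes the shares were 3.32% for promoter windows and 1.32% for introns. Per Mb of intron there were 44.3 optimal pairs at forkhead genes, 24.4 at bHLH genes and 11.8 at nuclear hormone receptor genes. These rest on 3, 1 and 6 pairs, and all genes had 9.33 per Mb. The intervals of all these families overlap that of the homeobox genes.

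Genes whose products bind or regulate homeobox proteins were read from a list of 16, drawn up with earlier results of these data known. Of them 3 (18.8%, interval 4.05 to 45.6%) had a promoter peak, against 3.32% of all genes. All 3 belong to the regulators of Hox gene expression. sor-3 had a peak 296 bp upstream with a signal of 131.1 and 87.0 and 46.7 in replicates 1 and 2, and sor-1 had one 462 bp upstream with 101.3 and 74.6 and 26.9 in the replicates. lin-59, a histone methyltransferase gene of the Ash1 type, had one 388 bp upstream with 98.9 and 70.4 and 32.7. All 3 were in the thresholded list of replicate 1 and not in that of replicate 2, and each signal was above those of the homeobox promoter peaks, which were 68.9 to 86.8.

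Of the other 13, lsy-22, a Groucho-related corepressor gene, had 2 intronic peaks in the optimal list, with signals of 38.7 and 26.8. Below the threshold, ldb-1, the partner of LIM homeodomain proteins, had an intronic signal of 68.8 with a score of 812, and rbr-2, a histone demethylase gene, had a promoter signal of 52.3 with a score of 771. unc-37, the Groucho gene, had a promoter signal of 59.0 with a score of 437, and lin-49, a bromodomain gene, had 54.5 with 362. The Polycomb-type genes mes-2 and mes-6 had promoter signals of 41.5 and 31.2, and mes-3 had no promoter peak in the optimal ranked list. The list was drawn up with earlier results of these data known, and 3 genes are few, so its share of promoter peaks was not tested against that of other genes.

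**Figure D5:**
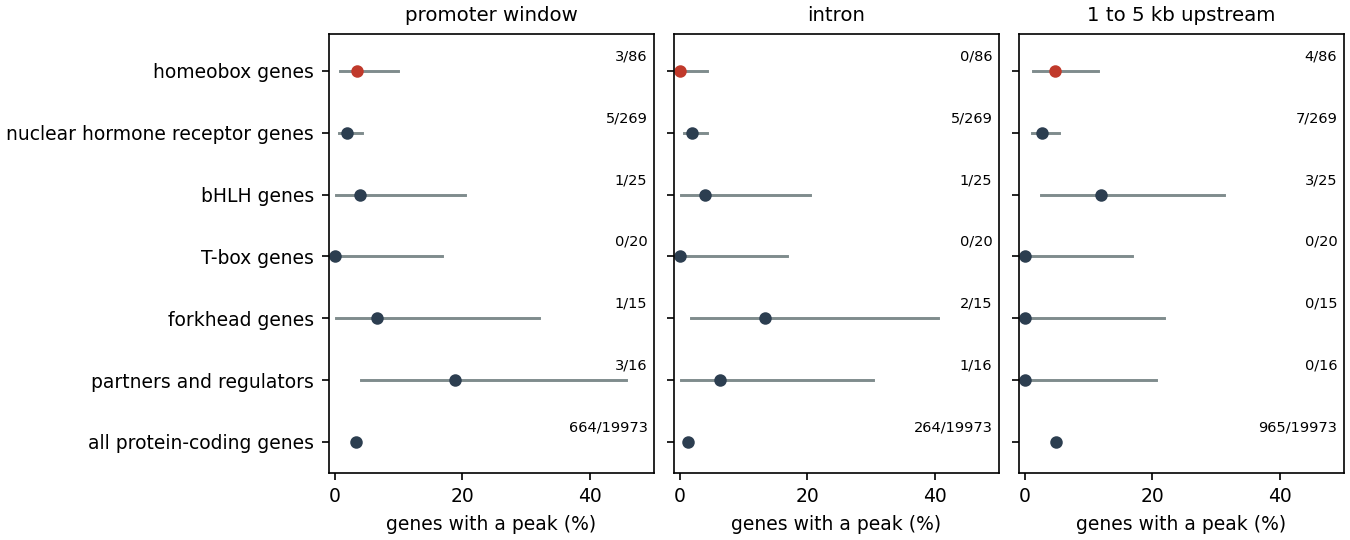
Share of genes with a thresholded LET-526 peak (x axis, %) in the promoter window, in an intron and 1 to 5 kb upstream, for homeobox genes (red), other families and all protein-coding genes, with exact 95% intervals as lines and counts at the right. The homeobox shares of 3.49%, 0% and 4.65% have intervals that hold the shares of all genes, 3.32%, 1.32% and 4.83%. For a count of 0 the exact interval drawn reaches further than the limit by the rule of 3 given in the text.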

How the data were processed

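Per the labels, the deposited files are peak lists on ce11 from each replicate and from both together. Which peak caller and aligner made them is not given in the sources used here. Each peak carries a score and a signal that the authors deposited, and the ranked lists also carry −log10 of the IDR, which the authors gave and against which the score was checked. The ranked list holding all 1200 optimal peaks was taken as the optimal ranked list, and the one holding all 1077 conservative peaks as the other. The ranked lists held 81275 (optimal), 78700 (conservative), 46104 (replicate 1) and 49296 (replicate 2) peaks.

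Summits were placed against Ensembl release 115 genes on WBcel235 with Python 3.11.15, pandas 2.3.3 and scipy 1.17.1, after a test on simulated peaks. A peak counts for every gene whose promoter window or distal region holds its summit. A replicate counterpart overlaps by 1 bp or more. Percentiles rank each gene's best promoter peak by score. Sequences were read from the WBcel235 genome. Named genes were all homeobox genes with an optimal peak, the 10 highest-scoring promoters without one, the Hox genes and other listed members; further genes were chosen after their values were seen. Homeobox genes, classes, families and partners were chosen with earlier results of these data known. No test was run, because there is 1 group. Other lists, thresholds, windows and distances were tried.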

Additional observations from a re-analysis of the deposited data

How the results depend on the processing

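No paired analysis was possible because there was 1 group. The promoter count of 3 homeobox genes was 0 to 0 in either replicate alone and 0 among peaks above the median signal. There the promoter share of all genes also fell, from 3.32% to 1.83% in replicate 1, 1.35% in replicate 2 and 2.09% above the median signal. In the other settings tried the homeobox count stayed within 2 to 4. The intronic count of 0 became 2 at an IDR of 0.05 and was 0 in every other setting tried. At that IDR the intronic share of all genes rose from 1.32 to 2.44%. The distal count of 4 was 2 in the conservative list, 1 to 1 in either replicate alone, 1 above the median signal, 0 when a peak went to its nearest start only, 7 at an IDR of 0.05, 1 with a limit of 3000 bp upstream and 9 with 10000 bp. The count of homeobox genes with any peak, 6, was 1 to 1 in either replicate alone, 1 above the median signal, 2 by nearest start, 12 at an IDR of 0.05, 3 with 3000 bp and 11 with 10000 bp. The 6 distinct peaks were 1 to 1, 1, 2 and 12 under the first 4 of these, and 10 with 10000 bp. The median promoter percentile of 38.4 was 53.8 in the conservative ranked list, 41.8 to 49.4 in the replicates, 48.2 with genes lacking a peak placed lowest and 46.9 with a window of 500 bp upstream and 100 bp downstream, so its side of the median of all genes depends on the list. The cause of these moves was not tested. Removing the 46 optimal peaks that overlap a stronger one changed none of the counts. Counts this small, without read depth or a control library, cannot show a difference between homeobox genes and others unless it is large.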

Other observations

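Widening the upstream limit to 10000 bp gave 9 of 86 homeobox genes with a distal peak, where 1877 of all 19973 genes (9.40%) had one. The 9 were ceh-5, ceh-8, ceh-20, ceh-21, ceh-39, ceh-41, ceh-76, ceh-90 and lim-7. ceh-20, the worm Pbx gene, and lim-7 had none within 5000 bp in the optimal list.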
